A study of Rattus norvegicus with 4 samples.

Results

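The 10 genes examined here mark mesangial cells, pericytes and smooth muscle, or belong to the platelet-derived growth factor (PDGF) system. They were followed in glomeruli of 4 male Wistar rats. They were taken by symbol from the expression table, which held values for all 10 genes among 13261. The animals form 1 group, named ADR in the labels, injected intravenously with Adriamycin (doxorubicin), an anthracycline that injures podocytes. Glomeruli had been isolated by sieving, and polyadenylated RNA was sequenced from stranded libraries; the protocol names no molecular identifiers. The labels give harvest at day 11 or 21 without saying which applied to which animal, and they give neither the dose nor the age. Puromycin aminonucleoside and agonist-treated rats named in the same protocol, and untreated rats, were not analysed here. The values below are therefore levels in ADR glomeruli and differences between these 4 animals, and day of harvest and animal cannot be told apart. The p-values measure only the spread between these samples.

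Mesangial cells form the contractile core of the glomerular tuft and belong to the same lineage as pericytes. During glomerular development, endothelial cells secrete PDGF-B, which binds PDGF receptor beta on mesangial precursors and recruits them into the tuft. PDGF-A acts through PDGF receptor alpha, a receptor typical of interstitial fibroblasts. Smooth muscle actin and its partners are low in resting mesangial cells, abundant in arterioles, and rise in activated mesangial cells.

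The 4 libraries held 13566962, 16207027, 15348629 and 15244063 reads in the listed genes for replicates 1 to 4, and members were covered by 124 to 7808 reads per library. Levels are given as CPM (reads as a share of the library's total, on the usual CPM scale), which are not corrected for transcript length. No gene lengths were used, so levels of different genes are not compared, and the comparisons below run between animals. Where the gene with the most or fewest CPM of a list is named, this is the choice of example and not a ranking per length. Markers of the tuft were present: 12 of 12 podocyte genes, 10 of 11 endothelial genes and 13 of 15 further mesangial genes had values. Proximal tubule transcripts were present too. In whole glomeruli, fewer cells of a type and less RNA per cell cannot be told apart.

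The 10 genes fell into 2 patterns between animals. Replicate 1 was lowest for 6 of them: *Pdgfra*, *Pdgfa*, *Pdgfb*, *Acta2*, *Tagln* and *Myh11*. Replicate 2 was lowest for the other 4, *Pdgfrb*, *Itga8*, *Gata3* and *Cspg4*. Of all genes, 35.0% were lowest in replicate 1 and 31.5% in replicate 2, so those 2 animals held the lowest value for most genes. A narrower pattern, lowest in replicate 1 and highest in replicate 2, was shared by 5 members and by 12.2% of all genes. That share of all genes was 17.5% without mitochondrial genes in the totals. The lowest animal of each member was the same under every scaling tried. Other cell types differed between the animals too. Of 10 proximal tubule genes 8 were highest in replicate 1, beside 27.7% of all genes, and all 10 were lowest in replicate 3, which was lowest for no member and for 19.6% of all genes. Their summed level was 15464 CPM in replicate 1 and 6984 CPM in replicate 3. Of 7 macrophage genes with values, 6 were lowest in replicate 1, beside the 35.0% of all genes. At the deposited scaling 4 were highest in replicate 3, beside 29.6% of all genes. Under each other scaling 3 were highest in replicate 3 and 3 in replicate 2. Their summed level ran from 1041 CPM in replicate 1 to 1334 CPM in replicate 2. The part of these cells in the members' values was not tested.

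The sequence before the transcription start is shown for 3 members: *Acta2*, from the first pattern and the member with the most CArG-like matches, *Pdgfb*, the other member with such a match, and *Itga8*, from the second pattern. RefSeq promoter sequences of build GRCr8 matched 7 of the 10 members by symbol, all but *Pdgfrb*, *Tagln* and *Myh11*. Only the first sequence listed for a symbol was used, so any other start of a gene was not searched. Each line gives the 250 bases before the start, 5′ to 3′ on the gene's strand. Capitals mark matches to the CArG box, the site of serum response factor, with at most 1 G or C allowed among its 6 inner bases.
Acta2 (GRCr8, minus strand, chr1:241172504-241172753): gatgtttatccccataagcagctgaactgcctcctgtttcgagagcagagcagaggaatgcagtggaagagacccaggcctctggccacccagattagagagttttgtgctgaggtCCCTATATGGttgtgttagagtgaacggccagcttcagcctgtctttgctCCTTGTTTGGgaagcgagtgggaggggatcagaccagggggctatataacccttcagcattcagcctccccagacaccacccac
Pdgfb (GRCr8, minus strand, chr7:113438344-113438593): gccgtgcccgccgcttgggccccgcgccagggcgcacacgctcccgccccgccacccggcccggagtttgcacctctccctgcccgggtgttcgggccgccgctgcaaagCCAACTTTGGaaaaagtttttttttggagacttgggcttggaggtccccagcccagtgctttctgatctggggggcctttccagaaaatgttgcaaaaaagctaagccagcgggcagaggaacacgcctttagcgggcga
Itga8 (GRCr8, minus strand, chr17:80410634-80410883): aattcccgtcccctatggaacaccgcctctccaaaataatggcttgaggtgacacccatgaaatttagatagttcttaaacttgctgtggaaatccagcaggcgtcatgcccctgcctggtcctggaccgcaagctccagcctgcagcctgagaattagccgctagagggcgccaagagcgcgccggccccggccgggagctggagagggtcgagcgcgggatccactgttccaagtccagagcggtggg

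The *Acta2* window held 2 such matches, starting 134 and 84 bases before the start, and the *Pdgfb* window 1, starting 140 bases before it. The other 5 windows, *Itga8* among them, held none, and no window held a CArG box without an inner G or C. Among 33465 promoter windows of the same length, 8.08% held a match with at most 1 inner G or C and 1.50% an exact one. The box reads the same on both strands, so each match was counted once. The motif TATAA, searched on both strands, was found in *Acta2* and *Pdgfra* at 40 and 43 bases before the start and in 24.0% of all windows. The motif GGGCGG, searched on both strands, was found in 4 of the 7 members' windows, those of *Pdgfb*, *Pdgfa*, *Cspg4* and *Gata3*, and in 30.5% of all windows. No matches of different motifs overlapped. These matches describe letters in a window and were not tied to binding.

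*Pdgfrb* (ENSRNOG00000018461) encodes PDGF receptor beta, the receptor through which mesangial cells are recruited. Its level was 454, 308, 505 and 512 CPM in replicates 1 to 4, or 445 ± 95 CPM (SD, n = 4). Replicate 2 stood below the other 3 animals, which lay close together. The highest animal exceeded the lowest by 1.66-fold, and by 1.13-fold without replicate 2.

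*Pdgfra* (ENSRNOG00000002244), the receptor for PDGF-A, differed from *Pdgfrb* mainly in replicate 2. It reached 9.18, 16.6, 13.1 and 12.8 CPM in replicates 1 to 4, a mean of 12.9 ± 3.02 CPM (SD, n = 4). Replicate 1 was lowest and replicate 2 highest, 1.81-fold apart, and the extremes were 1.30-fold apart without replicate 1. The lowest value rests on 124 reads. Of 11 listed fibroblast genes, 4 had values, with a summed level of 571, 484, 798 and 503 CPM in replicates 1 to 4, much of it from *Col1a1*. Their median gene-centred log2 value was -0.43, 0.10, 0.39 and -0.03. Of the 4, 2 were lowest in replicate 1 and none was highest in replicate 2, beside 35.0% and 21.3% of all genes. The genes *Dcn* and *Lum*, which define fibroblasts, were not analysed here, and the part of fibroblasts in the *Pdgfra* values was not tested.

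Because gene length and the total of a library cancel when the same gene pair is followed between animals, the balance of the receptors was also expressed as a share of reads. In replicate 1, *Pdgfra* made up 1.97% of 6283 receptor reads, with 95% Wilson bounds of 1.66% and 2.35%. In replicate 2 it made up 5.10% of 5256, with bounds of 4.54% and 5.73%. Replicates 3 and 4 had 2.53% and 2.42%, with intervals of 2.20% to 2.89% and 2.11% to 2.78%. The share in replicate 2 thus lay above the other 3 intervals, which overlapped one another. The ratio of *Pdgfrb* to *Pdgfra* differed 2.66-fold between replicates 1 and 2, or by 1.41 on the log2 scale, and its span was 0.36 without replicate 2. All intervals here cover counting error only.

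**Figure D1:**
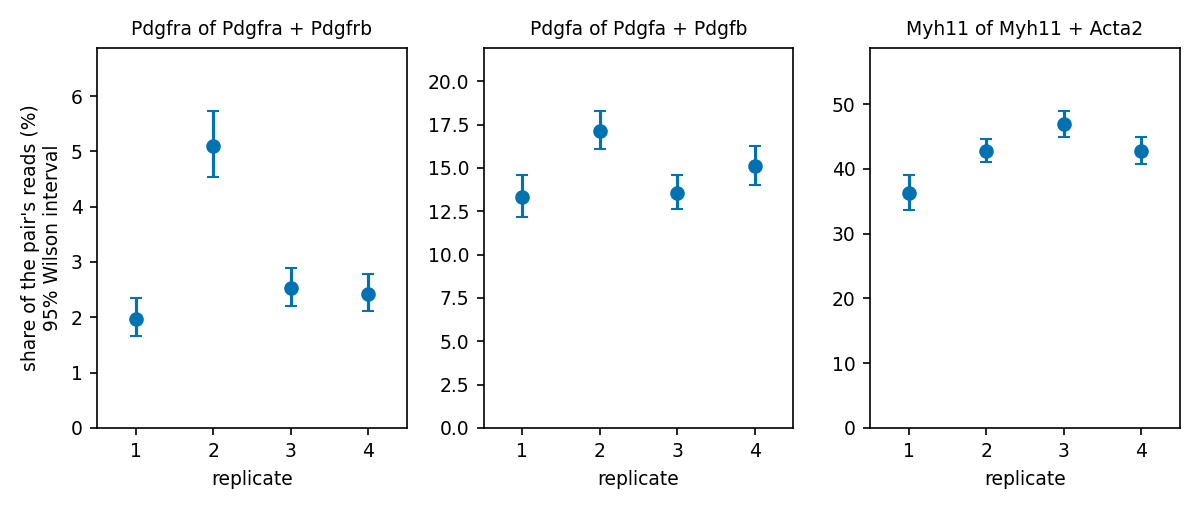
Share of reads (%, vertical axis from 0) taken by Pdgfra among the 2 PDGF receptors, by Pdgfa among the 2 ligands, and by Myh11 among Myh11 and Acta2, in each replicate. Points are single animals and bars are 95% Wilson intervals; the Pdgfra share of 5.10% in replicate 2 stands above the other 3 animals.

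Among the ligands, *Pdgfb* (ENSRNOG00000017197), made chiefly by endothelium, was 193, 234, 258 and 221 CPM in replicates 1 to 4. Its mean was 227 ± 27.0 CPM (SD, n = 4), with replicate 1 lowest and replicate 3 highest. The endothelial list had its lowest value in replicate 1 for 7 of 10 genes (6 with trimmed-mean or median-of-ratios scaling) and its highest in replicate 3 for 8 of 10, beside 29.6% of all genes highest in replicate 3. Its summed level ran from 7239 to 9595 CPM, and *Pecam1* was not analysed here. Its part in the *Pdgfb* values was not tested.

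*Pdgfa* (ENSRNOG00000001312), the ligand of PDGF receptor alpha, was 29.7, 48.5, 40.6 and 39.4 CPM in replicates 1 to 4, a mean of 39.6 ± 7.68 CPM (SD, n = 4). Replicate 1 was lowest and replicate 2 highest, the same order of animals as for *Pdgfra*. The gene-centred log2 values of *Pdgfa* and *Pdgfra* differed by a root mean square of 0.05 over the 4 animals. *Pdgfa* took 13.3%, 17.2%, 13.6% and 15.1% of the reads of the 2 ligands in replicates 1 to 4. The 95% Wilson intervals of replicates 1 and 2, 12.1% to 14.6% and 16.1% to 18.3%, did not overlap, while those of replicates 2 and 4 did. The log2 ratio of *Pdgfb* to *Pdgfa* spanned 0.43 between animals, and 0.21 without replicate 2.

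**Figure D2:**
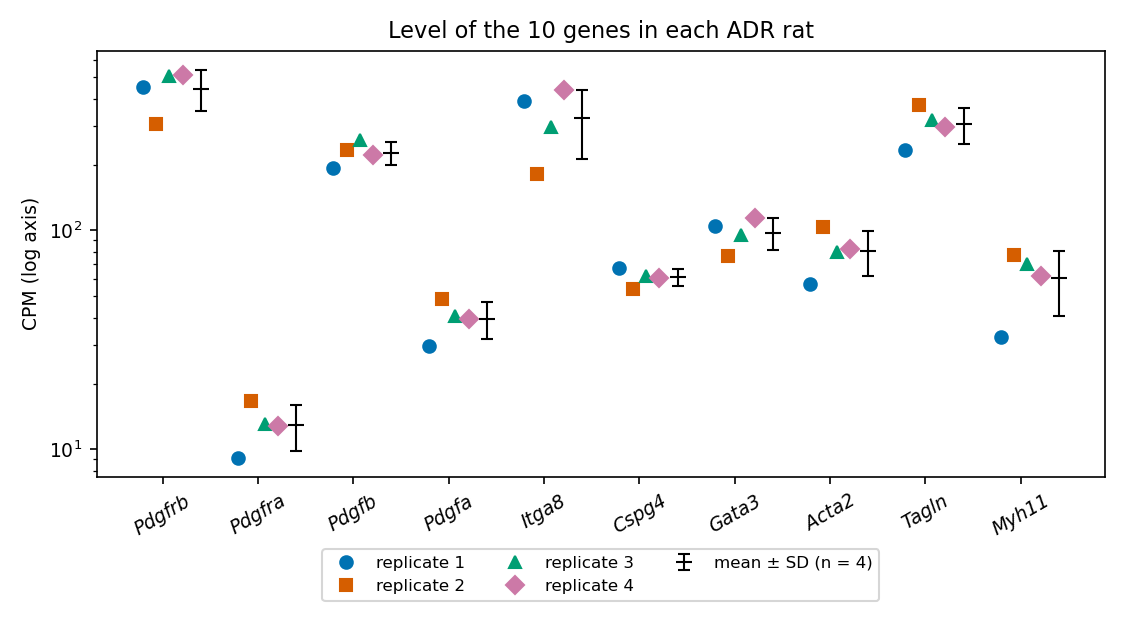
Level of each of the 10 genes (CPM, log axis) in the 4 ADR rats, with the mean and SD at the right of each gene (n = 4). Replicate 1 is the lowest point for 6 genes and replicate 2 for the other 4, as for Pdgfrb at 308 CPM and Itga8 at 182 CPM.

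*Itga8* (ENSRNOG00000016538) encodes the integrin alpha 8 chain, which within the glomerulus is typical of mesangial cells. Its level was 389, 182, 296 and 439 CPM in replicates 1 to 4, with a mean of 326 ± 113 CPM (SD, n = 4). The 4 animals were spread out, with replicate 2 lowest and replicate 4 at 2.42 times its level. Without replicate 2 the fold was 1.48.

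The ligand of this integrin, nephronectin, is laid down by podocytes and comes from *Npnt*, which was at 588, 169, 250 and 478 CPM in replicates 1 to 4. *Npnt* was also lowest in replicate 2, but it was highest in replicate 1 where *Itga8* was highest in replicate 4. The partner chain gene *Itgb1* was 1806, 1258, 1462 and 1835 CPM, again lowest in replicate 2; replicates 1 and 4 were close, and which was highest changed with trimmed-mean or median-of-ratios scaling. The matrix ligand gene *Fn1*, for fibronectin, was at 222, 569, 535 and 692 CPM and hence lowest in replicate 1. *Spp1*, for osteopontin, another ligand, was at 550, 1886, 779 and 1140 CPM, lowest in replicate 1 and highest in replicate 2. The 4 genes of this list with values were thus split, with 2 lowest in replicate 2 like *Itga8* and 2 in replicate 1. *Fn1* and *Spp1* were named after their values were seen.

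Podocyte transcripts had the same lowest animal as *Itga8* and *Pdgfrb*, replicate 2, but not the same highest. At the deposited scaling *Itga8* and *Pdgfrb* were highest in replicate 4. The 12 listed podocyte genes were lowest in replicate 2 for 11 genes and highest in replicate 1 for all 12, under each scaling tried, beside 27.7% of all genes highest in replicate 1. Their summed level ran from 5739 to 10250 CPM, and their median gene-centred log2 value was 0.47, -0.53, -0.08 and 0.18 in replicates 1 to 4. The part of podocyte content in the *Itga8* and *Pdgfrb* values was not tested.

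*Gata3* (ENSRNOG00000019336), a transcription factor of mesangial cells and of the collecting duct, had 104, 76.2, 95.5 and 115 CPM in replicates 1 to 4. Its mean was 97.7 ± 16.3 CPM (SD, n = 4), and it had the same order of animals as *Itga8* with a smaller fold, 1.50. Of 14 distal nephron and collecting duct genes, 5 were lowest in replicate 2 and 6 in replicate 1, near the 31.5% and 35.0% of all genes. Their summed level ran from 596 to 759 CPM. The most uneven of them, the collecting duct water channel gene *Aqp2*, was at 24.1, 59.4, 46.2 and 33.9 CPM, lowest in replicate 1 and highest in replicate 2. *Gata3* is also a T cell factor. Of 8 listed T cell genes 4 had values, with a summed level of 38.9 to 66.8 CPM, and all 4 were lowest in replicate 1, beside 35.0% of all genes. The part of collecting duct and T cells in the *Gata3* values was not tested.

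*Cspg4* (ENSRNOG00000017208), the NG2 proteoglycan of pericytes, varied least. It was 67.4, 54.1, 62.0 and 61.0 CPM in replicates 1 to 4, or 61.1 ± 5.45 CPM (SD, n = 4). The fold between its extremes was 1.24, with replicate 2 again lowest.

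Of 13 further mesangial genes with values, 9 were lowest in replicate 2 like these 4 members, and of 10 further pericyte genes 7 were, beside 31.5% of all genes. Without mitochondrial genes in the totals these counts were 8 of 13 and 5 of 10, beside 22.9% of all genes, and 4 of the 10 pericyte genes were then lowest in replicate 1. Most CPM in the mesangial list came from *Igfbp5*, an insulin-like growth factor binding protein, at 2735 ± 413 CPM, and fewest from *Sox9*, a transcription factor, at 7.33 ± 1.95 CPM (SD, n = 4). The most even mesangial gene was *Tbx2*, a T-box factor, at 110 ± 7.25 CPM, and the most uneven *Fhl2*, a LIM domain protein, at 111 ± 34.9 CPM (SD, n = 4). In the pericyte list *Mcam* had the most CPM, 584 ± 91.0, and *Kcnj8*, a potassium channel gene, the fewest, 7.14 ± 1.65 CPM (SD, n = 4). *Angpt1*, the gene of angiopoietin-1, had the largest SD of that list at 0.48 log2 units and *Rgs5* the smallest at 0.18.

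*Acta2* (ENSRNOG00000058039) encodes alpha smooth muscle actin, a marker of arteriolar muscle and of activated mesangial cells. It was 57.1, 103, 79.5 and 82.6 CPM in replicates 1 to 4, with a mean of 80.7 ± 19.0 CPM (SD, n = 4). Replicate 1 lay lowest and replicate 2 highest, 1.81-fold apart, and 1.30-fold remained between the extremes without replicate 1. Other actin genes have near-identical coding sequence, and how reads shared between them were counted is not given in the sources used here, so the *Acta2* level is uncertain to that extent.

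*Tagln* (ENSRNOG00000017628), for the actin-binding protein transgelin, followed with 234, 373, 318 and 296 CPM in replicates 1 to 4. Its mean was 305 ± 57.4 CPM (SD, n = 4). The ratio of *Acta2* to *Tagln* differed by 1.15-fold at most between animals, the narrowest of the 7 gene pairs chosen for ratios. It was not the closest pair among all members. The gene-centred log2 values of *Acta2* and *Tagln* differed by a root mean square of 0.09, and those of *Pdgfa* and *Tagln* by 0.03.

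*Myh11* (ENSRNOG00000057880), the smooth muscle myosin heavy chain of mature contractile cells, was 32.5, 77.6, 70.2 and 61.9 CPM in replicates 1 to 4. The mean was 60.5 ± 19.8 CPM (SD, n = 4). Replicate 1 stood well below the other 3 animals, and the 2.39-fold between extremes became 1.25-fold without it. *Myh11* took 36.2% of the reads of *Acta2* and *Myh11* in replicate 1 (95% Wilson interval 33.6% to 39.0%), below its 42.8%, 46.9% and 42.8% in replicates 2 to 4. Those intervals began at 41.1%, 44.9% and 40.8%, so replicate 1 lay under the other 3. Replicates 2 and 3 also differed narrowly beyond counting error, since the interval of replicate 2 ended at 44.6%. The log2 ratio of *Acta2* to *Myh11* spanned 0.63, and 0.24 without replicate 1.

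**Figure D3:**
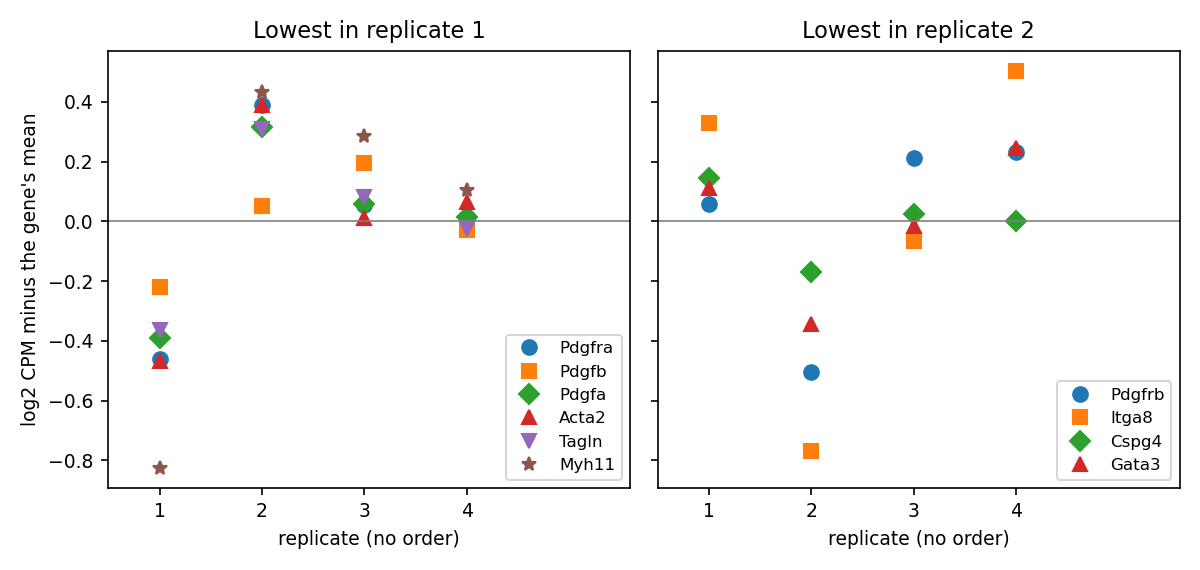
Log2 CPM minus the gene's own mean over 4 rats, by replicate; the left panel shows the 6 genes lowest in replicate 1 and the right panel the 4 lowest in replicate 2. Myh11 lies furthest down in replicate 1 and Itga8 in replicate 2, and the replicates have no order.

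Of 16 further smooth muscle genes with values, 3 were lowest in replicate 1 and highest in replicate 2, beside 12.2% of all genes. These were *Myl9*, *Ppp1r14a* and *Tpm2*, named after their values were seen. *Tpm2*, a tropomyosin gene and the list's most uneven, was 72.6, 161, 156 and 116 CPM in replicates 1 to 4. In all, 9 of the 16 were lowest in replicate 2, beside 31.5% of all genes (22.9% without mitochondrial genes in the totals). *Tpm1*, the most even, was 451 ± 26.7 CPM (SD, n = 4). *Flna*, for filamin A, had the most CPM, 1263 ± 108, and *Synpo2* the fewest, 4.16 ± 1.05 CPM (SD, n = 4).

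*Des*, named after its values were seen and encoding the intermediate filament desmin of mesangial cells and injured podocytes, was 701, 1117, 872 and 1014 CPM, lowest in replicate 1 and highest in replicate 2. Of the 13 further mesangial genes, its list, 2 had this order and 9 were lowest in replicate 2.

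**Figure D4:**
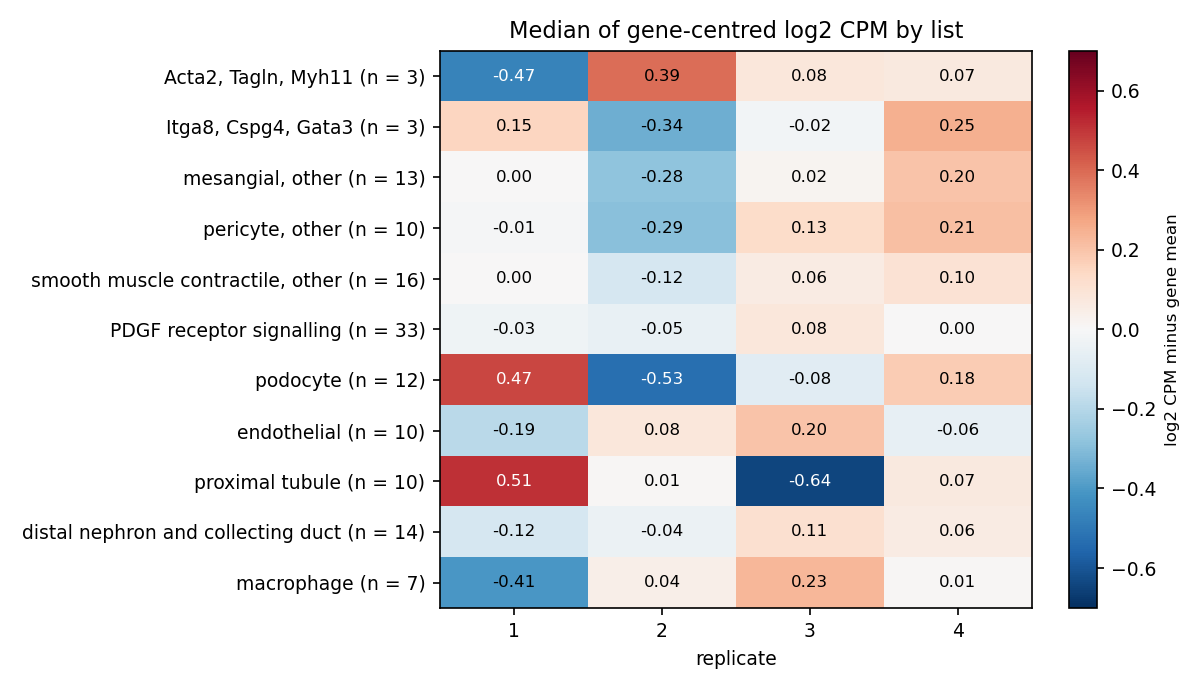
Median over each list of log2 CPM minus the gene's mean, by replicate; numbers in the cells are the medians and n is the number of genes with values. Acta2, Tagln and Myh11 have -0.47 in replicate 1 and 0.39 in replicate 2, whereas Itga8, Cspg4 and Gata3 have -0.34 in replicate 2 and the podocyte list -0.53.

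The spread of the members was next set against counting error and against other genes. All 10 members varied by more than Poisson sampling allows (chi-square test on recovered reads with 3 degrees of freedom, Benjamini-Hochberg adjusted over all genes), beside 69.5% of all genes. *Itga8*, *Pdgfrb* and *Tagln* were the members farthest from counting error. *Cspg4* was nearest to it, with an adjusted p of 0.000156, and it no longer passed without replicate 2, at an adjusted p of 0.107 in the same chi-square test, where 58.4% of all genes passed. Over the members the median SD between animals was 0.32 log2 units, and over all genes 0.18, with 8 of 10 members above the latter. The SD was largest for *Myh11* and *Itga8*, at 0.57 each, and smallest for *Cspg4*, at 0.13.

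Spread was also compared with that of genes of like level. In limma's F test of residual variance against its abundance trend, 0 of 10 members and 0% of all genes passed an adjusted p of 0.05, the smallest over all genes being 0.834. The prior variance and its spread were fitted to these same genes, which leaves that test little room to call any gene. The 0 is therefore not particular to the members. At an unadjusted p under 0.05, *Myh11* and *Itga8* passed, at limma p-values of 0.0156 and 0.0196, as did 5.44% of all genes. Both had an adjusted p of 0.913 by limma. A second test, a Pearson statistic on recovered reads with the dispersion held at its trend, called 2 of 10 members beside 7.59% of all genes. These were *Myh11* (adjusted p = 0.00157) and *Itga8* (adjusted p = 0.003), and *Acta2* was next at an adjusted p of 0.104 in that test. The *Myh11* call was lost without replicate 1 (adjusted p = 0.853), and the *Itga8* call without replicate 2 (adjusted p = 0.576) or without replicate 4 (adjusted p = 0.061), all in the Pearson test; of all genes 5.01%, 5.42% and 4.76% passed without replicates 1, 2 and 4. *Acta2* passed the Pearson test when mitochondrial genes were out of the totals, at an adjusted p of 0.0399, beside 7.33% of all genes.

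**Figure D5:**
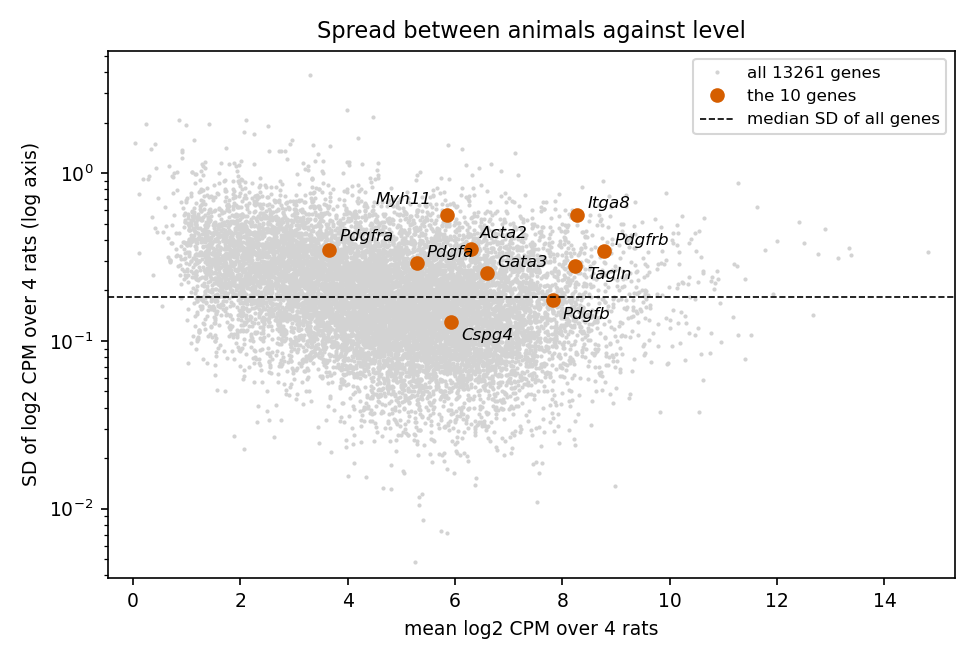
SD of log2 CPM over the 4 rats (vertical, log axis) against mean log2 CPM (horizontal) for all genes in grey and the 10 genes in colour; the dashed line is the median SD of all genes, 0.18. Myh11 and Itga8 are the highest of the 10 at 0.57, and Cspg4 and Pdgfb lie under the line.

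Of 7 further genes for PDGF ligands and their processing, the median SD was 0.15 log2 units, and *Pdgfc* had the largest, 0.58. *Pdgfc*, a ligand of receptor alpha, was 12.7, 8.05, 4.85 and 9.02 CPM in replicates 1 to 4, and *Pdgfd*, a ligand of receptor beta named after its values were seen, was 20.9, 22.2, 26.7 and 24.1 CPM. The 2 ligand genes had opposite ends, since *Pdgfc* was highest in replicate 1 and lowest in replicate 3 and *Pdgfd* the reverse. The extremes of *Pdgfd* were only 1.28-fold apart, and the lowest *Pdgfc* value rests on 74 reads. *Furin*, a protease gene whose product processes PDGF-A and PDGF-B, was even at 224 ± 7.06 CPM (SD, n = 4). *Sparc*, whose protein binds PDGF-B, had the most CPM of this list of 7, 6545 ± 647 CPM (SD, n = 4).

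Downstream of the receptors, 33 of 34 listed signalling genes had values, and 29 of them varied beyond counting error, beside 69.5% of all genes. In limma's test and at the fixed dispersion trend 0 of the 33 passed at an adjusted p of 0.05, beside 0% and 7.59% of all genes, and 0 had an unadjusted limma p under 0.05, beside 5.44%. Their median SD was 0.14 log2 units. The adaptor gene *Shc1* was the most even at 152 ± 6.31 CPM and *Spry1*, a feedback inhibitor of receptor tyrosine kinase signalling, the most uneven at 43.7 ± 8.34 CPM (SD, n = 4). *Plcg1*, for phospholipase C gamma 1, had the most CPM, 293 ± 46.3, and *Stat5a* the fewest, 12.8 ± 1.87 CPM (SD, n = 4).

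Genes whose profile over the 4 animals was most like that of *Pdgfrb* and of *Myh11*, the member with the largest SD at the deposited scaling by a margin too small to separate it from *Itga8*, were sought among all other genes. Likeness was the root mean square difference of gene-centred log2 CPM over 4 samples. For *Pdgfrb* the nearest were *Syngr3*, *Rnf144a*, *Chst15*, *Mettl24* and *Arntl*, at 0.02 to 0.04, and 75 genes lay within 0.1. For *Myh11* they were *Fam193b*, *Irak3*, *AABR07069227.1*, *Masp2* and *Mir5125*, at 0.04 each, and 30 genes lay within 0.1. With 4 samples many genes share a profile, and these names describe likeness only. Within the members, *Pdgfa* and *Tagln* were closest at 0.03, followed by *Pdgfra* and *Acta2*, also at 0.03. *Itga8* and *Myh11* were farthest apart at 0.87, and the ratio of *Itga8* to *Myh11* differed 5.12-fold between replicates 1 and 2.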

How the data were processed

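Poly(A) RNA-seq of glomeruli from 4 ADR rats was used. The authors deposited log2 values, 1 per gene and sample. The submitters' processing notes name HISAT2, featureCounts, Subread, limma and the build Rnor_6.0; their roles, the annotation, the use of strand and the low-value filter are not given in the sources used here. From the values, each is log2 of CPM with 0.5 reads added, and reads were recovered as whole numbers (within 0.01) for 100% of 13261 genes. Left out were 4 rows with displaced values. Levels are 2 raised to the deposited value.

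Tests were limma 3.58.1 (intercept only, abundance trend), a chi-square test of counts and a Pearson test with dispersion in 40 bins, adjusted by Benjamini-Hochberg. The Pearson statistic was also rescaled in each bin so that its median equalled that of the chi-square distribution. Each was run on simulated data. There limma missed most changes of 1.5-fold and of 2-fold, and the Pearson test missed most of 1.5-fold but few of 2-fold. Members and lists were chosen with earlier results of these data known. Named genes were all members, each list's extremes in mean and SD, and 5 nearest profiles. No gene length was at hand, so the planned per-length tests of *Pdgfrb* against *Pdgfra*, *Pdgfb* against *Pdgfa* and *Acta2* against *Myh11* were replaced by their ratios between animals. Replicate numbers follow accession order. Libraries ran over 2 lanes, which were not compared. A listed gene is not reported here.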

Additional observations from a re-analysis of the deposited data

How the results depend on the processing

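No paired analysis was possible because there is 1 group. Of 128 recomputed values, 120 stayed within their criterion (79 of 80 member levels, the exception being *Cspg4*, 5.93 log2 CPM and 6.07 without mitochondrial genes in the totals). For *Cspg4* the shift exceeded its SD of 0.13. For spans the criterion was a change smaller than the SD of that log2 ratio over the animals. Most level settings could hardly fail. Trimmed-mean and median-of-ratios factors are centred over the animals, so they leave a gene's mean log2 level in place. Leaving out 1 animal moves that mean by less than the gene's SD. The count of levels is therefore no measure of robustness. The number of members with excess spread was 0 by limma under every setting run, as was the number over all genes. Its prior was fitted to these same genes, so this 0 does not speak to the members. With the Pearson statistic the number of members was 2, and it ran from 1 to 2 with each replicate left out. The number beyond counting error ran from 9 to 10. The span between animals of the log2 ratio of *Pdgfrb* to *Pdgfra*, 1.41, ran from 0.36 to 1.41 with each replicate left out, that of *Pdgfb* to *Pdgfa*, 0.43, from 0.21 to 0.43, and that of *Acta2* to *Myh11*, 0.63, from 0.24 to 0.63; the low ends come without replicate 2 for the receptors and the ligands and without replicate 1 for the muscle genes. The per-length tests and their length alternatives were not run because no gene lengths were at hand, and these spans took their place. The Pearson test was set out with the others; its rescaled and left-out settings, and the scalings of the lowest animal, were chosen after seeing the data. With 124 reads in the thinnest library, *Pdgfra* is the member most limited by depth.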
